A study of Mus musculus with 8 samples.

Results

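RNA levels of 9 genes of cytokine signalling were compared in EL4 cells, a mouse T lymphoblast line from C57BL/6 that is grown as a lymphoma line. The genes were the transcription factors Stat3, Stat4, Stat5a, Stat5b and Stat6 and the feedback genes Socs1, Socs2, Socs3 and Cish, 9 of 54146 genes quantified. They were chosen by name, with no threshold on their values, but with earlier results of these data known. The control line, GFP + Plum, carried 2 fluorescent proteins and no added factor. T-bet + Plum carried FLAG-tagged T-bet, the lineage-determining factor of TH1 cells, with Plum. GFP + GATA3 carried GFP with HA-tagged GATA3, the corresponding factor of TH2 cells, and T-bet + GATA3 carried both factors. All lines were made by retroviral transduction and all were stimulated with the phorbol ester PMA at 50 ng/ml and the calcium ionophore ionomycin at 1 μM for 4 h before RNA extraction, so no unstimulated sample entered any comparison. Each line had 2 libraries, 8 in all, which the study defines as harvests of 1 line on different days. The p-values therefore describe the spread between harvests and not between independently made lines.

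STAT proteins carry cytokine signals from the cell surface to the nucleus. A cytokine brings its receptor chains together, the JAK kinases bound to those chains phosphorylate a STAT, and the STAT then dimerises and binds DNA. In T cells, IL-12 signals mainly through STAT4, IL-4 through STAT6, IL-2 and its relatives through STAT5A and STAT5B, and IL-6, IL-21 and IL-23 through STAT3. SOCS proteins and CIS, the product of Cish, are induced by this pathway and then inhibit it, which makes their genes a customary readout of STAT activity. PMA and ionomycin act inside the cell and do not use cytokine receptors.

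Expression is given in TPM, a level that allows for transcript length and library size, summed over the transcripts of a gene. Differences between lines are log2 fold changes (log2 FC) of counts from edgeR with their standard errors (SE), and FDR is the p-value adjusted over all 14791 genes tested. A gene was called at an FDR of at most 0.05. The libraries held between 8038565 and 16003519 estimated counts. Tbx21, the gene of T-bet, lay between 52.4 and 70.2 TPM in the T-bet lines and between 0.755 and 1.71 in the others. Gata3 lay between 138 and 299.99 TPM in the GATA3 lines and between 11.4 and 27.6 in the others. Every library thus matched its label. The highest Gata3 level was 164 TPM in T-bet + GATA3 and 299.99 in GFP + GATA3. The lowest was 11.4 TPM in T-bet + Plum and 24.8 in GFP + Plum. Comparisons with and without T-bet may therefore also differ in the level of Gata3. Of 9 T cell markers, Cd3d, Cd3e, Cd3g, Lck and Thy1 averaged at least 1 TPM. Cd4 averaged 0.946 TPM and Cd247 0.200 TPM, and Cd8a and Cd8b1 were close to 0. No B cell or myeloid marker averaged 1 TPM. The 5 myeloid markers summed to between 0.742 and 0.891 TPM without T-bet and to between 0.123 and 0.210 with it. The 3 NK cell markers summed to between 0.216 and 0.826 TPM without T-bet and to between 40.2 and 70.2 with it, almost all from the receptor gene Klrc1, while Ncr1 was at 0 in all 8 libraries. In such bulk RNA, more cells that express a gene and more RNA per cell cannot be told apart.

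The promoter windows of 3 of these genes are shown as background, and no test of RNA levels below used them. Each runs from 250 bases before to 50 bases after a RefSeq start site on build GRCm38.p6 and is written 5′ to 3′ on the strand of the gene. Stat5a and Stat4 were the called genes, and the windows are those at the start of their most abundant transcripts. Cish is shown for its STAT sites. Capitals mark AGGTGTGA, a T-box half-site, and TTCNNNGAA, the palindromic STAT site, both searched on both strands.
Stat5a, chr11:100859406-100859705, plus strand: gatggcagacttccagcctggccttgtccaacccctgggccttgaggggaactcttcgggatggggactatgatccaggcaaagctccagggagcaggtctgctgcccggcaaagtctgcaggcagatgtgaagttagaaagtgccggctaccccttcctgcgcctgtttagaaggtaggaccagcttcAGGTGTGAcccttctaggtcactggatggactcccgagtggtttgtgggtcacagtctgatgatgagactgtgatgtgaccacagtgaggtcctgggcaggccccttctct
Stat4, chr1:51986898-51987197, plus strand: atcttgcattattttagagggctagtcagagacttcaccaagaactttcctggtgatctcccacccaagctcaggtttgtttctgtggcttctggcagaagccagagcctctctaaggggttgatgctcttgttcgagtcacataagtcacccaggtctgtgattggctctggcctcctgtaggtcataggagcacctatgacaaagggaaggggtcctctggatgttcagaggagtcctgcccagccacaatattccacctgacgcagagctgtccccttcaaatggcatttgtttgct
Cish, chr9:107296409-107296708, plus strand: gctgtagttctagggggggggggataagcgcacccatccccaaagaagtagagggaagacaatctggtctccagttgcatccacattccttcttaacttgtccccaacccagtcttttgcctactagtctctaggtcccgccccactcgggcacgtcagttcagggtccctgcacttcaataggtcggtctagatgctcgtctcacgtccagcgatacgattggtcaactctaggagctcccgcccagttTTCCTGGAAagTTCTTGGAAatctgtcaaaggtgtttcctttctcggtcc

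RefSeq windows were found for 8 of the 9 genes, 11 windows in all. The T-box half-site occurred in the Stat5a window shown, at 61 to 54 bases before the start, and in none of the other 10. Of all 32851 mouse promoter windows of this length, 1.28% held it. The STAT site occurred in Cish, from the first base of the RefSeq transcript and again from base 12. It also occurred in Socs3, from 154 to 146 bases before the RefSeq start, and in 8.3% of all windows. None of the 5 Cish transcripts quantified here starts at the RefSeq start of Cish. The most abundant in TPM, of 411 bases and with a mean of 6.07 counts, starts downstream, at 107296912. The transcript with the most counts, a mean of 62.7, is a processed transcript that starts at 107296907. ENSMUST00000085102.5, with a mean of 26.2 counts, starts upstream, at 107296026. The hexamer AGATAA, one form of the element bound by GATA3 and its relatives, was in none of the 11 windows and in 11.2% of all. These are matches of letters, and they do not show that a factor was bound there.

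The RNA levels of 2 of the 9 genes differed between the lines, both of them STAT genes and both higher where T-bet was expressed. Stat5a, one of the 2 genes of STAT5, was expressed in every line and rose 3.39-fold with T-bet alone and 4.63-fold when T-bet was added to GATA3. Stat4 was at or near 0 without T-bet and was detected in all 4 libraries with it. No SOCS gene and no other STAT gene of the 9 passed the test in any comparison. Over all genes tested, 7.42% differed between the 4 lines by the same test, against 2 of the 8 tested here. Socs3 had no counts and was not tested.

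**Figure D1:**
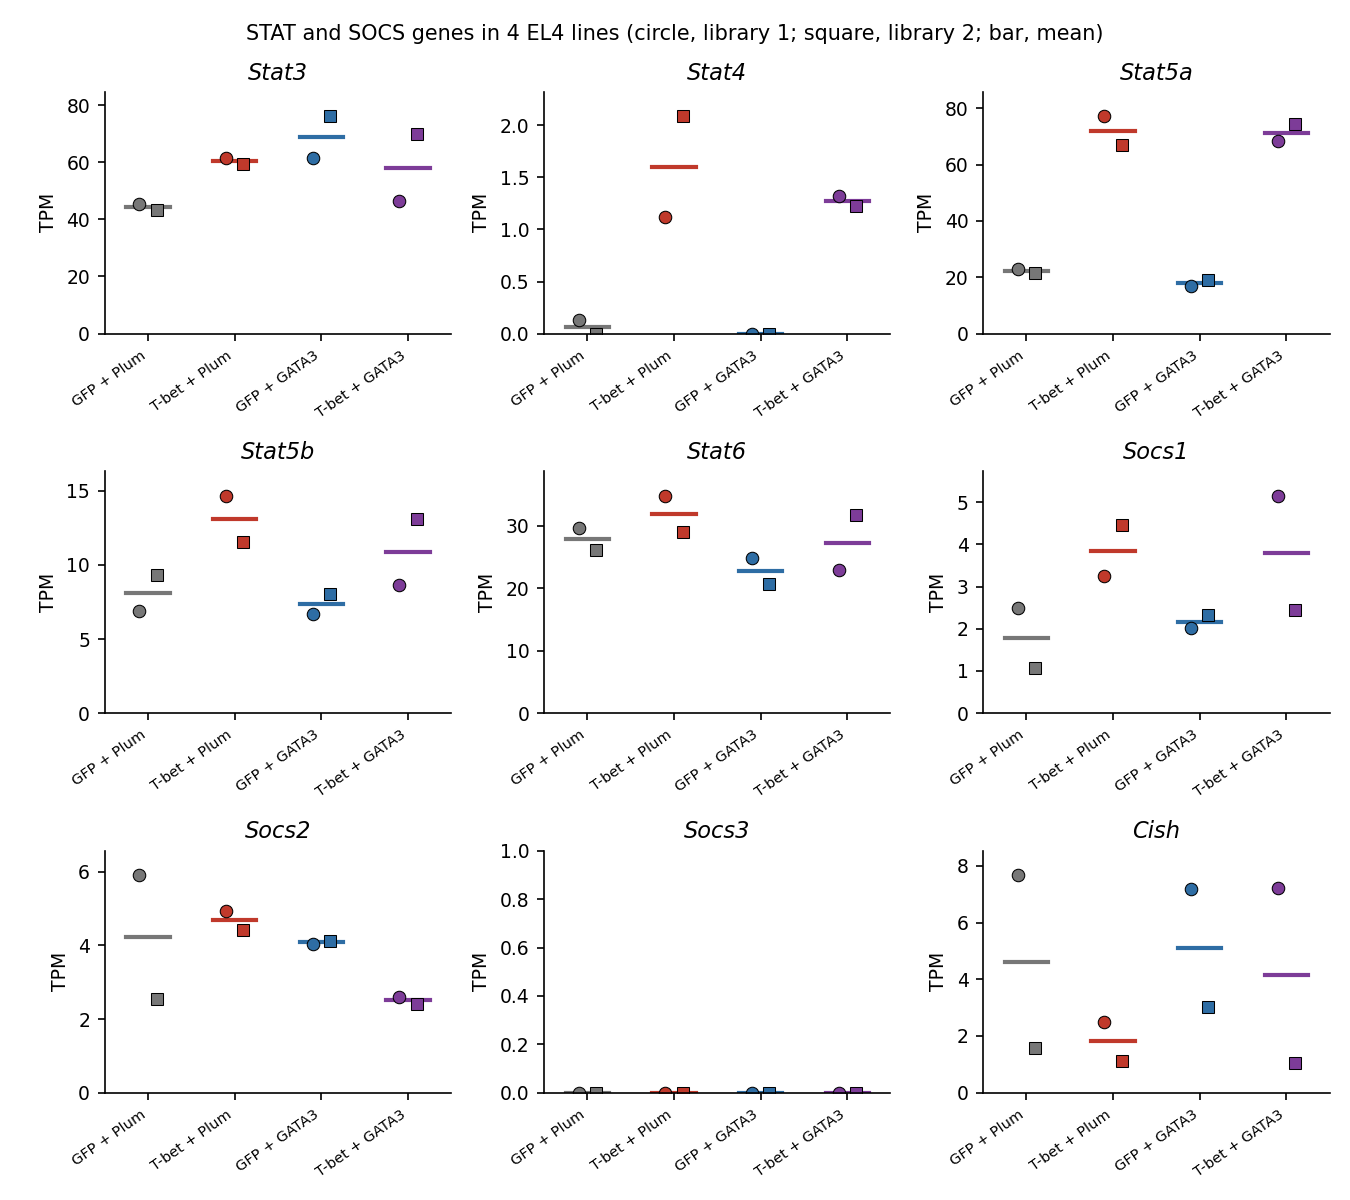
Expression in TPM (y axis, from 0) of each of the 9 genes in the 4 lines (x axis), with circles for library 1, squares for library 2 and bars for the mean of each line. The T-bet libraries of Stat5a lie between 66.9 and 77.2 TPM and the others between 16.9 and 23.1, whereas for Stat6, Socs2 and Cish the T-bet libraries overlap the others and all Socs3 points are at 0.

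Stat5a transmits IL-2, IL-7, IL-15 and GM-CSF signals. The gene lies on the plus strand of chromosome 11, at 100859351 to 100885169 on GRCm38. Its level was 23.1 and 21.5 TPM in GFP + Plum and 77.2 and 66.9 TPM in T-bet + Plum. It was 16.9 and 19.2 TPM in GFP + GATA3 and 68.4 and 74.4 TPM in T-bet + GATA3. The T-bet libraries were thus well above the others, with no overlap. By counts scaled to library size, 12.5% of all genes tested had this order. The difference of T-bet + Plum from GFP + Plum was a log2 FC of 1.76 (SE 0.126, edgeR FDR 0.000245), and that of T-bet + GATA3 from GFP + GATA3 was 2.21 (SE 0.129, edgeR FDR 0.000104). T-bet + GATA3 exceeded GFP + Plum by a log2 FC of 1.80 (SE 0.126, edgeR FDR 0.000234). Each of these calls held without any 1 library, at the latest at an FDR of 0.00331.

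In the order of the lines, T-bet + Plum had 72.1 ± 7.30 TPM (mean ± SD, n = 2), T-bet + GATA3 71.4 ± 4.19, GFP + Plum 22.3 ± 1.13 and GFP + GATA3 18.02 ± 1.60. The T-bet lines differed from each other by a log2 FC of 0.04 (95% confidence interval -0.24 to 0.32, edgeR FDR 1.00), within the spread of their libraries. GFP + GATA3 was lower than GFP + Plum in both libraries, by a log2 FC of -0.41 (SE 0.125, edgeR p 0.0108), which did not pass the adjustment (FDR 0.897). The effect of T-bet was larger in the presence of GATA3 by 0.45 on the log2 scale (SE 0.174, edgeR p 0.0323), and this interaction did not pass either (FDR 1.00). Of all genes tested, 2.58% had an unadjusted p below 0.05 for the interaction, and none was called.

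Stat5a was quantified over 7 transcripts. The most abundant, ENSMUST00000107356.7, starts at the RefSeq start of the Stat5a window printed above and encodes protein. It held between 66.9% and 80.0% of Stat5a TPM in the T-bet libraries and between 51.0% and 72.2% in the others, so the shares overlapped. In TPM this transcript lay between 45.8 and 58.7 with T-bet and between 9.76 and 15.5 without. The next, ENSMUST00000107357.3, starts downstream, at another RefSeq start, and lay between 5.33 and 9.64 TPM with T-bet and between 1.25 and 6.51 without. The higher level of Stat5a in the T-bet lines was therefore carried mainly by the transcript from the upstream start. Assignment of fragments to transcripts is an estimate, and transcripts were not tested.

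**Figure D2:**
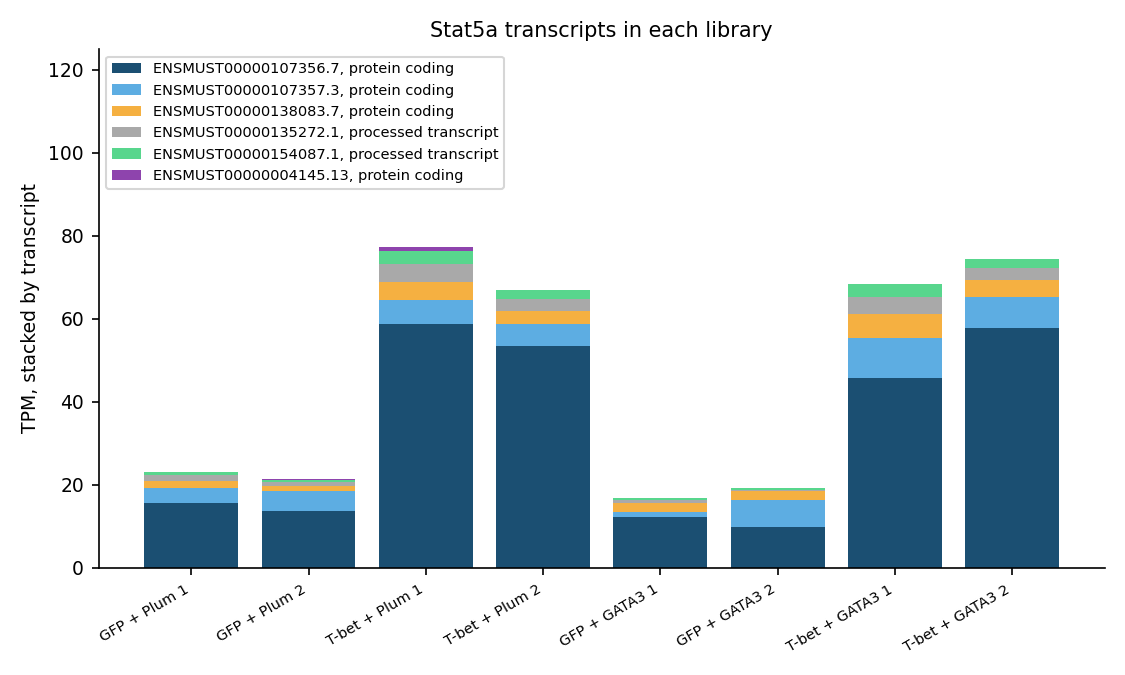
TPM of Stat5a (y axis, from 0) in each of the 8 libraries (x axis), stacked by transcript. The bottom segment is ENSMUST00000107356.7, which lies between 45.8 and 58.7 TPM in the 4 T-bet libraries and between 9.76 and 15.5 in the other 4.

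Stat4, the STAT of IL-12 and a factor of TH1 differentiation, lies on the plus strand of chromosome 1 at 51987148 to 52107189. GFP + Plum had 1 and 0 counts and GFP + GATA3 had 0 and 0 counts. T-bet + Plum had 22 and 74 counts, and T-bet + GATA3 had 32 and 45 counts. In TPM, Stat4 stood at 1.12 and 2.09 in T-bet + Plum and at 1.32 and 1.22 in T-bet + GATA3, and at no more than 0.133 in any library without T-bet. All 4 T-bet libraries were higher than all others, as for 12.5% of all genes tested by scaled counts. Even in the T-bet libraries Stat4 was expressed far below Stat5a. Relative to GFP + GATA3, at a floor of 3 counts in each library, T-bet + GATA3 was at least 13.5-fold higher (edgeR FDR 0.00503). Summed over the libraries, T-bet + Plum was 135-fold above GFP + Plum, with an exact 95% counting interval of 23.7 to 5397 (edgeR FDR 0.0041). T-bet + GATA3 was 101-fold above GFP + Plum, with an interval of 17.6 to 4049 (edgeR FDR 0.00587). The intervals cover counting error only. These calls of Stat4 held without any 1 library, at the latest at an edgeR FDR of 0.0374.

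The level of Stat4 depends on how shared sequence was divided. Of the runs of 31 bases in the Stat4 transcripts of Gencode M21, 23.7% also occur in an overlapping gene model, and kallisto splits such fragments between the 2 models. The overlapping model held 13 and 2 counts in GFP + Plum, 0 and 8 in T-bet + Plum, 2 and 9 in GFP + GATA3, and 0 and 0 in T-bet + GATA3. With these added to Stat4, the sums were 14 and 2, 22 and 82, 2 and 9, and 32 and 45 counts in the same order of lines. T-bet + Plum then exceeded GFP + Plum by a log2 FC of 3.07 (edgeR FDR 0.0459). For T-bet + GATA3 the log2 FC was 2.95 over GFP + GATA3 (edgeR FDR 0.0666) and 2.66 over GFP + Plum (edgeR FDR 0.0868), and neither passed. The direction of the difference thus did not depend on the gene model, while its size and 2 of its 3 calls did. T-bet + GATA3 and T-bet + Plum differed by a log2 FC of -0.30 in Stat4 (95% confidence interval -1.37 to 0.77, edgeR FDR 1.00).

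Stat5b encodes the close relative of STAT5A and lies head to head with Stat5a, on the minus strand at 100780731 to 100850724, with 8627 bases between the gene models. It stood at 6.90 and 9.33 TPM in GFP + Plum, 14.7 and 11.5 in T-bet + Plum, 6.72 and 8.01 in GFP + GATA3, and 8.65 and 13.1 in T-bet + GATA3. Both T-bet + Plum libraries were above both GFP + Plum libraries, and both T-bet + GATA3 libraries were above both GFP + GATA3 libraries. The share of all genes with this order was not counted. The log2 FC was 0.69 (SE 0.244, edgeR FDR 0.162) with T-bet alone and 0.71 (SE 0.246, edgeR FDR 0.156) with T-bet added to GATA3, and neither was called. Without the filter on low counts these values had an edgeR FDR of 0.0115 and 0.00479. Stat5b itself passed the filter, so its own counts were the same in that fit. Stat5a and Stat5b share 836 runs of 31 bases, 11.5% of those of Stat5a and 15.1% of those of Stat5b, so the level of one may hold fragments of the other, and this was not tested. The ratio of Stat5a to Stat5b in TPM was between 2.30 and 3.35 in the 4 libraries without T-bet and between 5.26 and 7.91 in the 4 with it.

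Stat3 and Stat6 were among the more abundant of the 9 genes, and neither was called in the fit of the 8 libraries by line. Stat3, on chromosome 11 at 100885098 to 100939540, had the highest mean level summed over all transcripts, 57.9 TPM over the 8 libraries. Protein-coding transcripts held between 53.2% and 69.5% of Stat3 TPM, against between 89.4% and 96.5% of Stat5a TPM. The ranking is therefore given for the sum only. Stat3 stood at 45.5 and 43.3 TPM in GFP + Plum, 61.4 and 59.3 in T-bet + Plum, 61.6 and 76.1 in GFP + GATA3, and 46.3 and 69.9 in T-bet + GATA3. All 6 libraries with an added factor were above both control libraries, although the first T-bet + GATA3 library was so only narrowly. The share of all genes with this order was not counted. The log2 FC was 0.51 (SE 0.173, edgeR FDR 0.147) for T-bet + Plum and 0.43 (SE 0.172, edgeR FDR 1.00) for GFP + GATA3, each against GFP + Plum. T-bet + GATA3 differed from GFP + GATA3 by 0.08 (SE 0.172, edgeR FDR 0.853), and this value turned negative under some settings. The 3′ end of Stat3 overlaps that of Stat5a, which runs on the opposite strand, by 72 bases, and whether strand was used in the quantification is not given in the sources used here.

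Stat6, the STAT of IL-4 and IL-13 and a factor of TH2 differentiation, lies on chromosome 10 at 127642986 to 127660957. It stood at 29.5 and 26.1 TPM in GFP + Plum, 34.8 and 29.0 in T-bet + Plum, 24.9 and 20.7 in GFP + GATA3, and 22.9 and 31.7 in T-bet + GATA3. The libraries of the lines overlapped, apart from those of T-bet + Plum and GFP + GATA3 and those of GFP + Plum and GFP + GATA3. Such separation of lines was not counted over all genes. The log2 FC was 0.29 (95% confidence interval -0.10 to 0.68, edgeR FDR 0.404) with T-bet alone and 0.40 (0.01 to 0.79, edgeR FDR 0.245) with T-bet added to GATA3.

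Of the feedback genes, Socs1 came nearest to the pattern of Stat5a. Its product inhibits the JAK kinases and is best known as a brake on interferon-γ signalling. The gene lies on chromosome 16 at 10782240 to 10785536. Socs1 stood at 2.49 and 1.08 TPM in GFP + Plum, 3.26 and 4.45 in T-bet + Plum, 2.02 and 2.32 in GFP + GATA3, and 5.16 and 2.45 in T-bet + GATA3. In CPM, counts scaled to the TMM library size, all 4 T-bet libraries were above all others, as they were for Stat5a and Stat4 and for 12.5% of all genes tested. In TPM one T-bet + GATA3 library was below one GFP + Plum library. The log2 FC was 1.20 (SE 0.464, edgeR FDR 0.204) with T-bet alone and 1.00 (SE 0.463, edgeR FDR 0.287) with T-bet added to GATA3. Neither was called, at counts of 47 to 174 per library. Without the filter on low counts the edgeR FDR was 0.00221 and 0.0176, although Socs1 itself passed the filter and its counts were the same. Without the first T-bet + GATA3 library the second log2 FC was 0.23, and without the second GFP + Plum library the first was 0.79.

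Socs2, a feedback gene best known from growth hormone signalling, lies on chromosome 10 at 95385362 to 95417180. It stood at 5.91 and 2.55 TPM in GFP + Plum, 4.94 and 4.42 in T-bet + Plum, 4.04 and 4.12 in GFP + GATA3, and 2.61 and 2.40 in T-bet + GATA3. The T-bet + GATA3 libraries were lower than those of T-bet + Plum and GFP + GATA3, and overlapped GFP + Plum. How many of all genes had this order was not counted. In CPM the T-bet + GATA3 libraries, at 5.41 and 2.79, overlapped those of T-bet + Plum, at 4.48 and 6.91. The log2 FC was 0.15 (95% confidence interval -0.75 to 1.05, edgeR FDR 0.881) with T-bet alone and -0.54 (-1.46 to 0.39, edgeR FDR 0.523) with T-bet added to GATA3. Counts were between 35.5 and 105 per library, and both intervals span 0.

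Cish encodes CIS, a STAT5-induced inhibitor of IL-2 receptor signalling, and lies on chromosome 9 at 107296026 to 107302784. It stood at 7.67 and 1.58 TPM in GFP + Plum, 2.50 and 1.12 in T-bet + Plum, 7.20 and 3.03 in GFP + GATA3, and 7.22 and 1.06 in T-bet + GATA3. In every line library 1 was above library 2, and the lines overlapped apart from T-bet + Plum and GFP + GATA3. The same order of libraries in all 4 lines was found in CPM for 12.7% of genes tested. The share of genes with T-bet + Plum and GFP + GATA3 apart was not counted. The log2 FC was -1.25 (95% confidence interval -3.49 to 1.00, edgeR FDR 0.55) with T-bet alone and 0.17 (-1.98 to 2.31, edgeR FDR 0.954) with T-bet added to GATA3. Without the filter on low counts the first of these had an edgeR FDR of 0.000744. Cish itself passed the filter, and its counts were the same in that fit. Without the first GFP + Plum library the first log2 FC was 0.17. Between 29.8% and 66.5% of Cish counts fell on protein-coding transcripts, and the rest on processed transcripts.

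Socs3, a feedback gene of IL-6 family signalling, lies on chromosome 11 at 117966079 to 117970047. It was listed at 0 counts in all 8 libraries, for each of its 3 transcripts. A count of 0 allows, at 3 counts, a level of up to 0.187 CPM in the deepest library and 0.373 in the shallowest, for counting error only. Its transcripts share no run of 31 bases with another gene. The Socs3 promoter window held 1 STAT site, as described above.

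**Figure D3:**
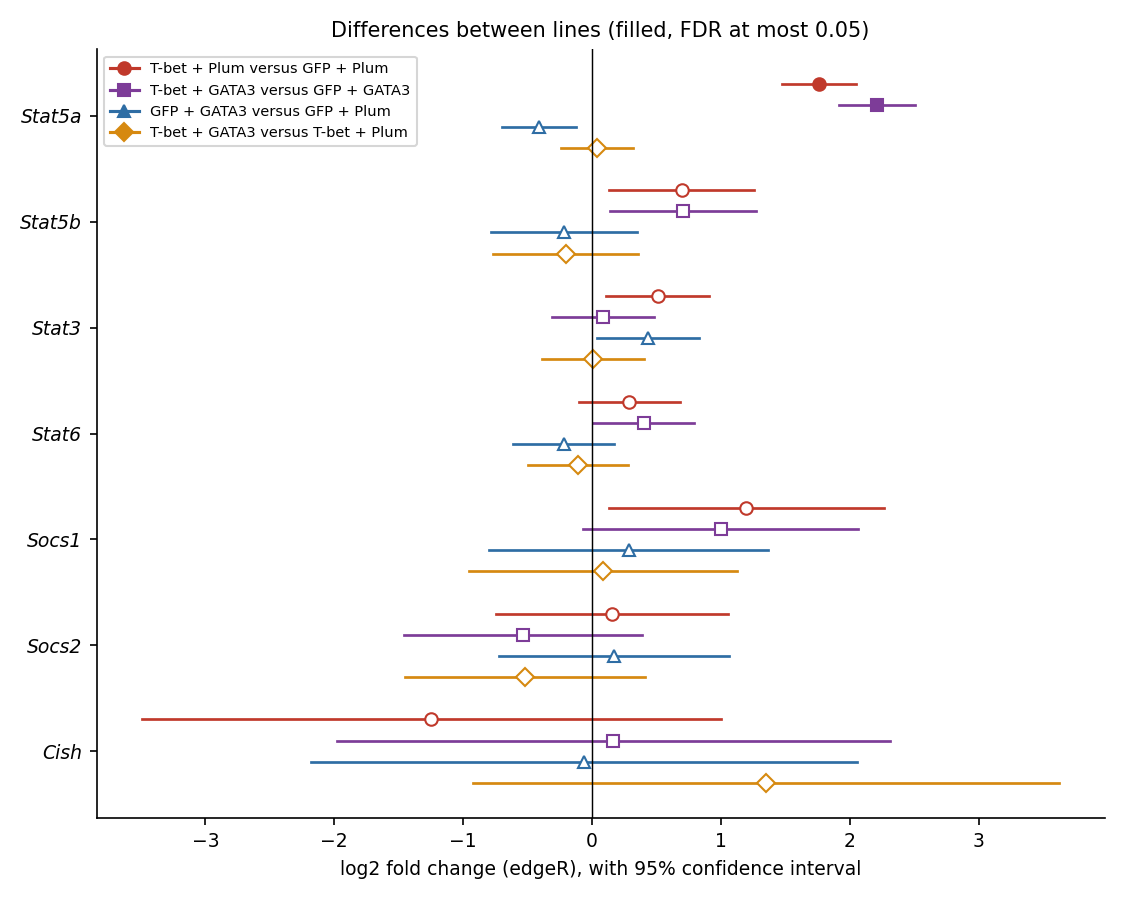
log2 fold change from edgeR (x axis) with its 95% confidence interval for the 7 tested genes other than Stat4 (y axis) in 4 comparisons of lines, with filled symbols for an FDR of at most 0.05. The T-bet comparisons of Stat5a, at 1.76 and 2.21, are the only filled symbols, and the intervals of Cish span from -3.49 to 3.62.

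Read by comparison, T-bet changed 2 of the 8 tested genes, Stat5a and Stat4, in both settings, and both rose. With T-bet alone 6.2% of all genes were called, 4.04% of all upward, and with T-bet added to GATA3 5.77%, 3.73% of all upward. The median log2 FC of the 8 genes was 0.60 and 0.55 in these comparisons, against 0.01 over all genes tested in each. For both factors against control, 2 of 8 were called, again Stat5a and Stat4, both higher, with 4.87% of all genes, 3.44% upward. GATA3 changed none of the 8 by edgeR, neither alone (0.0203% of all genes called) nor when added to T-bet (0.0338%). At an unadjusted p below 0.05 the numbers were 2 and 0, with 3.7% and 3.78% of all genes, the 2 being Stat5a and Stat3, and DESeq2 called none of the 8 in either comparison.

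For each called gene the 3 protein-coding genes with the most similar profile over the 8 libraries were taken, by Pearson's r of log2 CPM. For Stat5a these were Mxd1 (r 0.994), a MYC antagonist, Slit3 (r 0.993), a guidance ligand, and Mnda (r 0.993), an interferon-inducible nuclear protein. For Stat4 they were Fasl (r 0.998), the death ligand, Ctsw (r 0.997), a cathepsin of cytotoxic lymphocytes, and Parp14 (r 0.997), an ADP-ribosyltransferase. The 8 libraries form groups with and without T-bet, so a high r mainly shows that a gene followed T-bet, and 713 and 778 genes had an r above 0.9 with Stat5a and Stat4.

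The rest of the JAK-STAT pathway was followed through 78 genes in 6 lists, of which 60 could be tested. These lists too were chosen with earlier results of these data known. With T-bet alone 22 were called, 18 higher and 4 lower, and with T-bet added to GATA3 20 were called, 16 higher and 4 lower. Of all genes tested, 6.2% and 5.77% were called in these comparisons, 4.04% and 3.73% upward. Of the pathway genes called, 18 were called in both, which is 81.8% of the first set and 90% of the second. GATA3 alone or added to T-bet changed none of the 60 by edgeR, with 10 and 6 at an unadjusted p below 0.05 (3.7% and 3.78% of all genes), and by DESeq2 2 and 0 were called. The T-bet counts rest on few libraries. Without T-bet + Plum library 1, T-bet + Plum library 2 or GFP + Plum library 2 the count with T-bet alone was 9, 7 or 10, and without GFP + GATA3 library 1 or 2 the count with T-bet added to GATA3 was 11 or 6. Calls that held without any 1 library included those of Ifng, Il4ra and Jak2 in both comparisons, Irf1 with T-bet alone, and Il2, Pim1 and Ifngr2 with T-bet added to GATA3.

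Of the JAK kinases, which phosphorylate the STATs, Jak2 rose in both comparisons, by a log2 FC of 1.20 (SE 0.165, edgeR FDR 0.00554) and 1.34 (SE 0.166, edgeR FDR 0.00362). Its level was between 325 and 487 TPM with T-bet and between 144 and 210 without. Jak3, the kinase of the common γ chain, rose by 1.04 (edgeR FDR 0.0221) and Tyk2, a kinase of the IL-12 receptor, by 1.09 (edgeR FDR 0.0286) with T-bet alone. With T-bet added to GATA3, Jak3 was at 0.35 (edgeR FDR 0.396) and Tyk2 at 0.94 (edgeR FDR 0.0523), and neither was called. Of 13 other inhibitors and phosphatases only Ptpn11, the gene of the phosphatase SHP2, was called in the T-bet comparisons, higher by 1.14 (edgeR FDR 0.0132) and 1.06 (edgeR FDR 0.0169).

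Of 17 tested receptor chains, 4 were called higher and 3 lower in each comparison, where 4.04% and 3.73% of all genes were called higher. Il12rb1, a chain of the IL-12 and IL-23 receptors, rose by a log2 FC of 1.501 and 1.88, Il4ra, a chain of the IL-4 and IL-13 receptors, by 1.90 in each, and Il21r by 3.06 and 3.52. Il2rb, a chain of the IL-2 and IL-15 receptors, was called with T-bet alone (1.89) and not with T-bet added to GATA3 (1.36, edgeR FDR 0.0883). Il15ra was called with T-bet added to GATA3 (2.33) and not with T-bet alone (1.78, edgeR FDR 0.0851). The interaction of T-bet and GATA3 was called for none of the 60 pathway genes tested. The receptors that fell were Il7r, with log2 FCs of -3.52 and -2.87, Il6ra, with -1.69 and -1.81, and Ifngr2, a chain of the interferon-γ receptor, which lay between 1.55 and 5.88 TPM without T-bet and between 0.0363 and 0.252 with it. As background, IL-12 signals through STAT4, IL-4 through STAT6, IL-21 and IL-6 through STAT3, and IL-2, IL-7 and IL-15 through STAT5, so receptor chains of one STAT were found on both sides.

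Of 11 tested ligands, 4 were called higher and 1 lower in each comparison, beside the same 4.04% and 3.73% of all genes called higher. Ifng, the gene of interferon-γ, lay between 3960 and 5918 TPM with T-bet and between 0.189 and 1.49 without. Csf2, the gene of GM-CSF, rose by 3.17 and 4.12, Il23a by 3.53 and 3.98, and Il2 by 1.22 and 2.07. Il22 lay between 0.826 and 3.90 TPM without T-bet and was at 0 in the 4 T-bet libraries. Of 13 tested target genes of STATs, 5 were called higher in each comparison and none was called lower, against the same shares of all genes. Irf1, Myc, Pim1 and Ccnd2 were called in both, with log2 FCs of 1.69 and 0.98, 0.78 and 0.80, 0.91 and 1.97, and 0.72 and 1.01. Junb (0.58) was called with T-bet alone and Irf8 (2.63) with T-bet added to GATA3. Their log2 FCs in the other comparison were 0.47 (edgeR FDR 0.0641) and 2.22 (edgeR FDR 0.0729). By sign, 8 of the 13 had a positive log2 FC in each comparison. For both factors against control 6 of the 13 were called, 5 higher and 1 lower. The target genes have other regulators besides STATs, and whether STATs took part was not tested. Socs1, Socs2 and Cish were not part of this list and are described above.

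**Figure D4:**
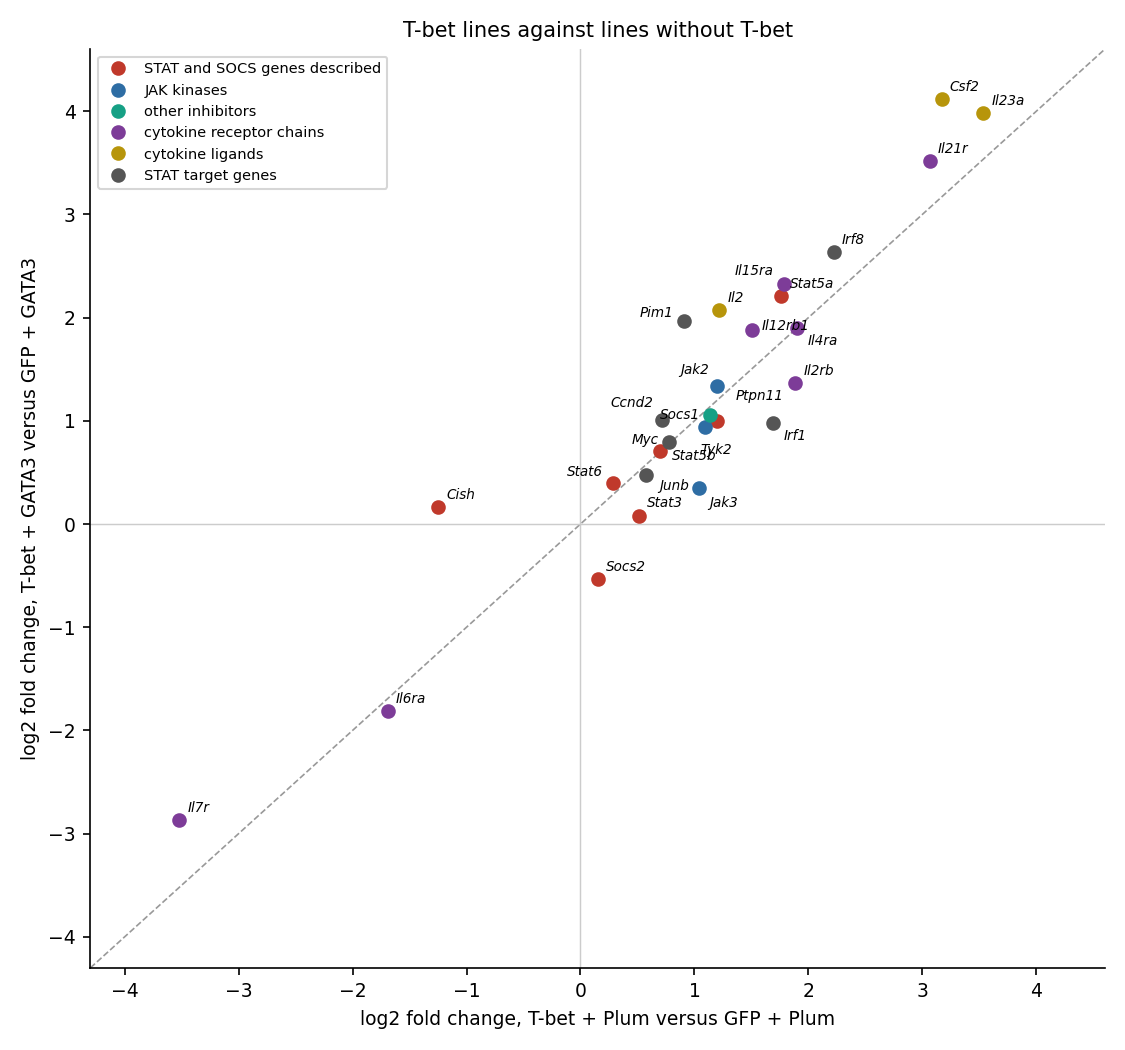
log2 fold change of T-bet + Plum against GFP + Plum (x axis) and of T-bet + GATA3 against GFP + GATA3 (y axis) for 7 of the STAT and SOCS genes described and for pathway genes called in either comparison, with the diagonal dashed and colours for the lists. Stat5a lies at 1.76 and 2.21 among the receptor and ligand genes that rose, whereas Stat3, Stat6, Socs2 and Cish lie nearer the centre or on opposite sides of 0, and Stat4, Ifng, Il22 and Ifngr2 are left out because one side had few counts.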

How the data were processed

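RNA was sequenced from 4 EL4 lines after stimulation, with 2 libraries per line. The authors trimmed reads with Trim Galore! after FastQC and quantified transcripts with kallisto, whose versions are not given in the sources used here, on models of build GRCm38 (mm10). The methods name Gencode M20, whereas the deposited files are labelled M18. Polyadenylated RNA was used, and the sample labels add ribosomal RNA depletion. The authors deposited estimated counts, not normalized, for 136535 transcripts of each library, and deposited TPM, scaled to 1 total per library. The legend of the study's RNA figure gives more harvests per line than the 2 analysed here.

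Estimated counts and TPM were summed per gene, and counts rounded. edgeR 4.0.16 in R 4.3.3 was run with TMM, filterByExpr (14791 genes left) and the quasi-likelihood test on 1 fit of the 8 libraries, with Benjamini-Hochberg adjustment over all genes tested. An SE is the size of a log2 FC over the root of its F statistic. TPM were not TMM-scaled, and their median over tested genes was shifted by -0.18 (log2) for T-bet + GATA3 against GFP + GATA3 and by -0.12 for T-bet + GATA3 against GFP + Plum. A fold against libraries at 0 used a floor of 3 counts per library. The named genes were the 9 genes, the 3 genes most like each called gene, and pathway genes called in a T-bet comparison. Members, lists and tests were chosen with earlier results of these data known. DESeq2 1.42.0, length offsets, library-size scaling, other filters, protein-coding transcripts, a fold threshold of 1.5 (log2), the replicate block and leaving out each library were alternatives, and adding the counts of an overlapping gene model to Stat4 was chosen after seeing the data. The values of 1 called pathway gene are not reported here. Promoters are from RefSeq (GRCm38.p6) and gene positions from Gencode M21. The fits were tested on simulated data. No pair of libraries of 1 line was a duplicate (chi-square per degree of freedom 10.2 to 30.9). Sums and figures were made in Python 3.11.15 (pandas 2.3.3, scipy 1.17.1, matplotlib 3.10.9).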

Additional observations from a re-analysis of the deposited data

How the results depend on the processing

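The 2 calls of Stat5a with T-bet, alone and added to GATA3, held under every alternative run, with a log2 FC of 1.68 to 1.84 and 2.11 to 2.32. Without the filter on low counts the number of the genes called rose from 2 to 5 over the 4 lines, to 5 with T-bet alone and to 4 with T-bet added to GATA3, and from 0 to 1 with GATA3 added to T-bet. A filter of at least 10 counts in every library removed Stat4 and left 1 in each of those comparisons and in T-bet + GATA3 against GFP + Plum. Leaving out each library kept the number of genes called in every comparison. For the pathway genes with T-bet alone (22), 12 also had a log2 FC above 1.5 in size, and between 7 and 21 were called without a library. With T-bet added to GATA3 (20), the number was 31 without the filter and between 6 and 22 without a library. For both factors against control (15) it was 23 with DESeq2, 27 without the filter, 8 with the fold threshold and between 8 and 14 without a library (9 without GFP + Plum 2 or T-bet + Plum 2, 8 without T-bet + GATA3 2). With GATA3 alone (0) it was 2 with DESeq2, 2 with DESeq2 and length offsets and 9 without the filter, and with GATA3 added to T-bet (0) it was 2 without the filter. The causes were not tested.

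Values that changed sign were not called. Leaving out a library gave -0.21 to 0.57 for Socs2 and -1.95 to 0.17 for Cish with T-bet alone, and -0.13 to 0.27 for Stat3 and -2.05 to 1.00 for Cish with T-bet added to GATA3. For GATA3 added to T-bet it gave -0.041 to 0.12 for Stat5a and -0.65 to 0.23 for Stat4. With T-bet added to GATA3, Stat3 was -0.000258 with library size only, -0.077 with DESeq2 and length offsets and -0.067 with edgeR and length offsets, and Cish was -0.0587 and -0.0582 with the same length offsets. Stat5a with GATA3 added to T-bet was -0.00283 with library size only. Deviations of same-numbered libraries of different lines had correlations of -0.0455 to 0.302, with a mean of 0.142. These values do not settle whether the numbers pair the libraries, and the main fit did not use the numbers. With the replicate number as a block, 3 of the genes were called with T-bet alone, the addition being Stat3 (FDR 0.0265), 26 and 27 pathway genes were called in the T-bet comparisons, and Cish with T-bet added to GATA3 was -0.18. The tested SOCS genes and Cish had 34.0 to 255 counts per library, and Socs3 had 0.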
